A study of Mus musculus with 8 samples.

Results

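The genes of the platelet-derived growth factor (PDGF) family were followed across the cells of the mouse long bone periosteum. The family has 6 genes in these data, the ligands Pdgfa, Pdgfb, Pdgfc and Pdgfd and the receptors Pdgfra and Pdgfrb, chosen by symbol from the 32285 genes that the count matrices list. Single periosteal cells of femurs and tibias were sequenced in droplets. Every captured RNA is tagged with a cell barcode and a unique molecular identifier (UMI), and the counts are therefore counts of captured molecules. The C57BL/6J male mice were 16 weeks old and had been fed a normal diet chow (ND) or a high fat diet chow (HFD). Strain, sex, age and tissue were common to both groups. The labels list 4 samples per diet, but the cells of a diet stand pooled in 1 matrix that does not tell the mice apart. With a single library per diet no test between diets could be made, and every interval given is a 95% interval of counting error.

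PDGF ligands are secreted as dimers and bind a pair of receptor tyrosine kinases on mesenchymal cells. Endothelial PDGF-B recruits pericytes and smooth muscle cells that carry the receptor encoded by Pdgfrb, while the receptor encoded by Pdgfra marks fibroblasts and progenitors of bone and adipose tissue. PDGF-C and PDGF-D are secreted in a latent form and become active after a protease removes their CUB domain.

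In the mm10 genome (GENCODE annotation), Pdgfa lies at chr5:138976014-138997370, Pdgfb at chr15:79995874-80014977, Pdgfc at chr3:81036416-81214040 and Pdgfd at chr9:6168584-6378850. Pdgfra lies at chr5:75152292-75198215 and Pdgfrb on chromosome 18. The UMIs were counted over each whole gene, and the libraries capture the 3′ end of transcripts, so that isoforms were not separated.

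After filtering, 6029 ND and 6224 HFD cells were kept, with a median of 4610 and 4823.5 UMIs per cell. The family had 3200 UMIs in ND and 4612 in HFD, found in 761 and 1109 cells. Cells were clustered without the 6 genes, and clusters were named from marker genes into 13 cell classes. Levels are given as UMIs of a gene per 1000000 UMIs of the class (UPM). The 409 ND and 668 HFD mesenchymal-like cells had the collagen gene Col1a1 at 4431 and 6599 UPM, endothelial-like cells (117 and 233) had the cadherin gene Cdh5 at 1126 and 1165 UPM, and macrophage-like cells (91 and 91) had the complement gene C1qa at 6168 and 6011 UPM. The pericyte/smooth muscle-like class was small (31 and 59 cells) and carried the smooth muscle myosin Myh11 at 3373 and 3621 UPM, with UMIs in every cell, whereas the pericyte gene Kcnj8 had 1 UMI in ND and 20 in HFD. Other markers of the class were higher, with Rgs5 at 839 and 1184 UPM, Notch3 at 494 and 584, Mcam at 291 and 241 and Higd1b at 47.5 and 137. The libraries shared 15 barcodes, 14 of them among kept cells. B cell-like cells, a class in which the family is not known to be active, served as the level of free RNA: every member stood at or below 0.919 UPM there, no more than 0.799% of its level in its leading class.

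Pdgfa, which encodes the A chain that binds the receptor of Pdgfra, was highest in pericyte/smooth muscle-like cells. It had 115 UMIs in ND and 228 in HFD, or 364 UPM (301 to 437) and 405 UPM (354 to 461). Of these cells 93.5% in ND and 88.1% in HFD had a Pdgfa UMI, against 0.198% and 0.407% of B cell-like cells, at median depths of 8617 and 8656 UMIs in the first class and 3885 and 3822.5 in the second. With each cell thinned to 1000 UMIs the shares were 48.4% and 37.3%. Mesenchymal-like cells followed at 57.5 and 65.4 UPM, macrophage-like cells at 46.8 and 47.8, endothelial-like cells at 46.8 and 39.8 and dendritic cell-like cells at 35.0 and 24.5. Over both libraries, the intervals of mesenchymal-like (57.8 to 66.9 UPM) and macrophage-like cells (38.7 to 57.2) did not overlap, although they did within each library, while those of macrophage-like, endothelial-like and dendritic cell-like cells overlapped with their neighbours. In the monocyte-like class Pdgfa stood at 2.93 and 5.58 UPM, with 14 of the 25 HFD UMIs in a single cell.

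Pdgfb encodes the B chain, the vascular ligand of the receptor of Pdgfrb. Its highest level was in endothelial-like cells, with 170 UMIs in ND and 295 in HFD. This is a level of 294 UPM in ND and 261 in HFD, and 65.0% and 60.1% of the cells had a UMI. Macrophage-like cells held the second level, 53.3 and 54.8 UPM. The intervals of these classes lay apart over both libraries, 248 to 298 UPM against 44.8 to 64.5. Natural killer (NK) cell-like cells had 31.7 and 23.6 UPM and T cell-like cells 8.73 and 16.6 UPM, both above the B cell-like cells, which had 2 ND and 0 HFD molecules. Mesenchymal-like cells had only 10 and 2 UMIs of Pdgfb, 8 of them in 1 cell.

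Pdgfc encodes one of the latent ligands. Macrophage-like cells carried it at 44.4 UPM in ND (55 UMIs) and 32.9 in HFD (33 UMIs), ahead of mesenchymal-like cells at 16.9 and 23.2 UPM. Over both libraries the interval was 31.5 to 48.4 UPM in macrophage-like and 18.1 to 23.4 in mesenchymal-like cells, while within the HFD library the intervals overlapped (22.6 to 46.2 and 19.7 to 27.0). Pericyte/smooth muscle-like cells (19.3 UPM, 11.3 to 31.0) could not be told apart from mesenchymal-like cells. No Pdgfc UMI was found in endothelial-like cells, where a count of 0 allows up to 5.20 UPM in ND and 2.65 in HFD.

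Pdgfd encodes the other latent ligand, which acts through the receptor of Pdgfrb. Endothelial-like cells had 50.2 and 49.5 UPM (29 and 56 UMIs), mesenchymal-like cells 31.8 and 23.9, and pericyte/smooth muscle-like cells 19.3 over both libraries. The interval of endothelial-like cells over both libraries (39.7 to 61.5 UPM) lay above that of mesenchymal-like cells (24.2 to 30.2), while within the ND library they overlapped (33.6 to 72.1 and 26.9 to 37.3). Macrophage-like cells had no Pdgfd UMI in either library, so that Pdgfc was found without Pdgfd in macrophage-like cells, Pdgfd without Pdgfc in endothelial-like cells, and both in mesenchymal-like and pericyte/smooth muscle-like cells.

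Pdgfra was nearly confined to mesenchymal-like cells, at 255 UPM in ND (1218 UMIs) and 258 in HFD (1791 UMIs). A UMI was seen in 74.3% and 67.1% of these cells, against 0.0660% and 0.271% of B cell-like cells. Endothelial-like cells had none, while pericyte/smooth muscle-like cells had a single HFD molecule. The mesenchymal-like class held 97.3% (96.6% to 97.8%) of all Pdgfra UMIs. Neutrophil-like cells, the most numerous class, had 1.19 and 1.58 UPM, which is 0.467% and 0.614% of the mesenchymal level, and their shares of the mesenchymal level of Dcn, a fibroblast proteoglycan gene, were 0.539% and 0.747%.

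Pdgfrb was carried by both mural and mesenchymal cells. Pericyte/smooth muscle-like cells had 136 UPM in ND (43 UMIs) and 179 in HFD (101 UMIs), and mesenchymal-like cells 114 and 115 UPM. Over both libraries the intervals were 138 to 193 UPM and 109 to 121 UPM and did not overlap, while those of the ND library alone did (98.6 to 183 in pericyte/smooth muscle-like cells). Among pericyte/smooth muscle-like cells, a split made after the values were seen gave 206 UPM of Pdgfrb (163 to 257) in the 37 cells with a UMI of Rgs5, a gene of pericytes and small vessel smooth muscle, and 132 UPM (102 to 168) in the 53 cells without, with intervals that overlap. Pdgfa stood at 391 and 390 UPM in the same cells. Blood progenitor-like cells had 44 Pdgfrb UMIs over 33 cells, 4.43 UPM in ND and 2.34 in HFD, at the deepest median of any class (30738 and 26712.5 UMIs per cell).

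**Figure D1:**
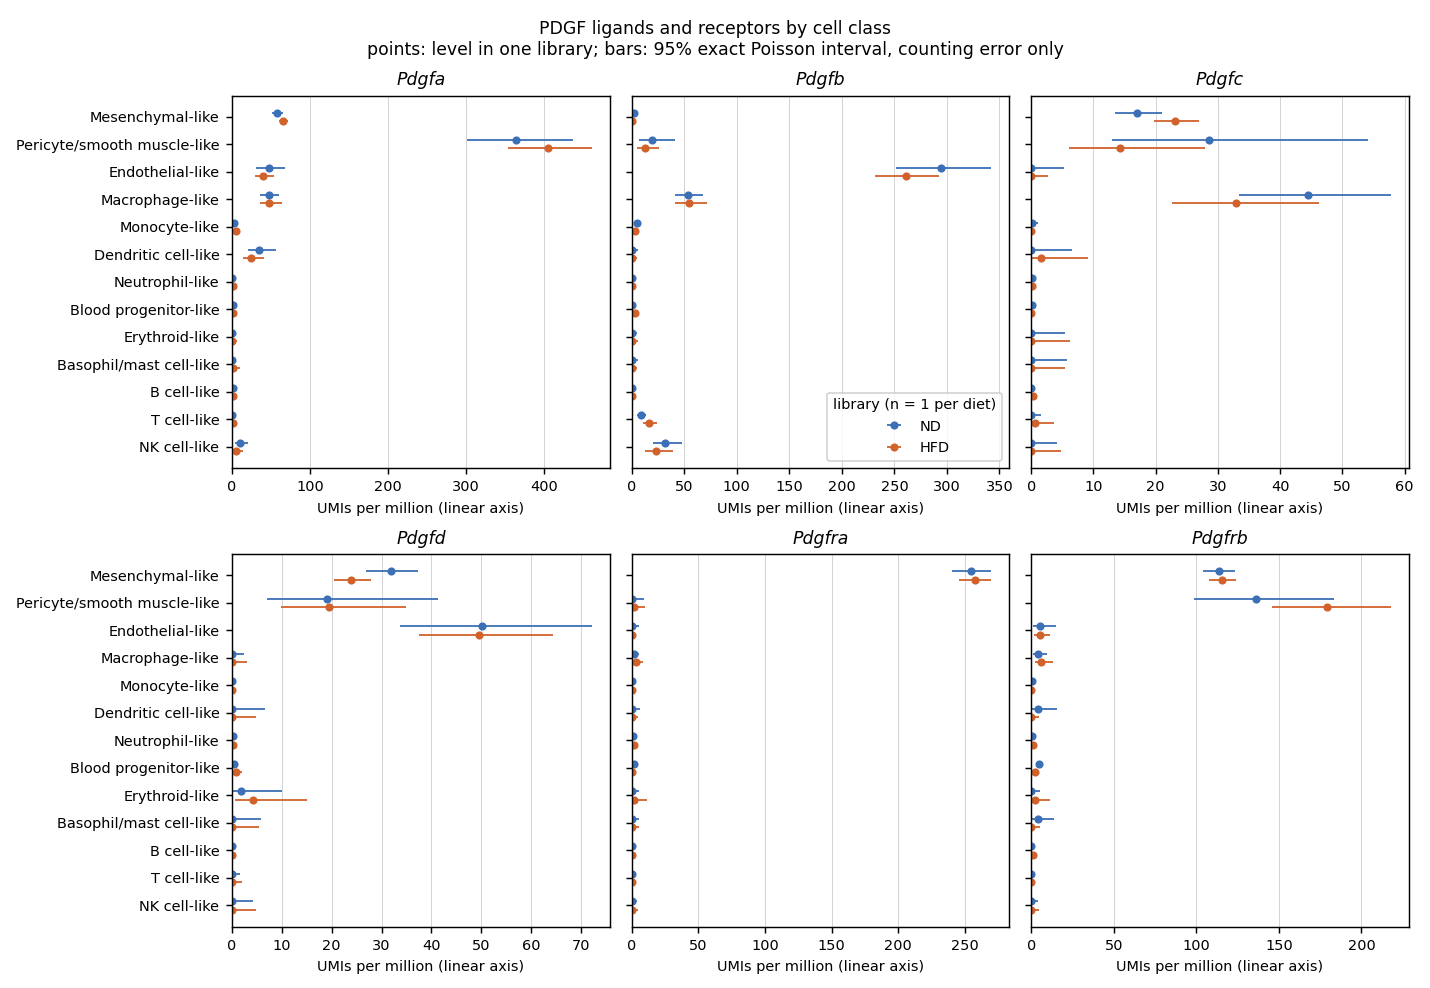
Level of each PDGF gene (UPM, linear axes that differ between panels) in 13 cell classes, with the ND library in blue and the HFD library in orange and bars for the exact Poisson 95% interval. Pdgfa peaks in pericyte/smooth muscle-like cells (364 and 405), Pdgfb in endothelial-like cells (294 and 261) and Pdgfra in mesenchymal-like cells (255 and 258), while Pdgfc, Pdgfd and Pdgfrb each have more than 1 class well above 0.

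The class with the highest level was not always the class with most molecules. Mesenchymal-like cells were 8.79% of kept cells and held 50.5% of Pdgfa UMIs (47.9% to 53.1%), 66.5% of Pdgfc, 73.1% of Pdgfd and 82.9% of Pdgfrb UMIs. The pericyte/smooth muscle-like class, 0.735% of cells, held 23.7% of Pdgfa UMIs (21.5% to 26.0%) and 8.87% of Pdgfrb. Endothelial-like cells held 54.6% of Pdgfb UMIs (51.2% to 58.0%) and 19.5% of Pdgfd UMIs. Macrophage-like cells, 1.49% of cells, held 36.2% of Pdgfc UMIs in ND (28.6% to 44.4%) and 15.6% in HFD (10.96% to 21.16%), 17.8% and 11.4% of Pdgfb, and 10.2% and 5.45% of Pdgfa. The mesenchymal share of Pdgfc was 53.3% in ND and 75.9% in HFD, and the endothelial share of Pdgfb 45.9% and 61.3%.

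**Figure D2:**
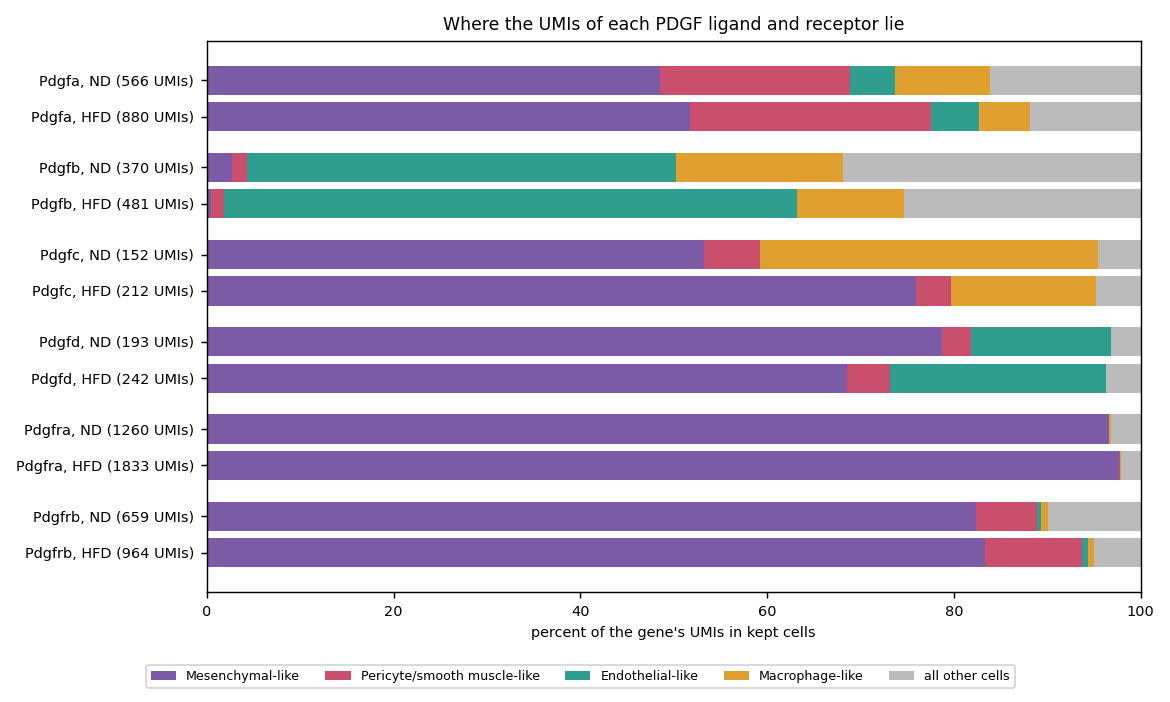
Share of each gene's UMIs (percent of its UMIs in kept cells, 0 to 100) that lay in 4 cell classes and in all other cells, with 1 bar per gene and library. Mesenchymal-like cells hold nearly all Pdgfra and most Pdgfrb, Pdgfc and Pdgfd, and endothelial-like cells most Pdgfb over both libraries (54.6%).

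Mesenchymal-like cells were clustered again, which gave 5 named subclasses and 3 clusters that kept no name. Both fibroblast-like subclasses were rich in Pdgfra. Cells marked by Ccl11 and Col15a1 (114 in ND and 212 in HFD) had 497 and 506 UPM, cells marked by Pi16 and Dpp4 (92 and 107) had 299 and 289, and osteoblast-like cells (59 and 128) had 88.5 and 103. Tenocyte-like cells, which are few (8 and 38), had 34.0 and 47.2 UPM and chondrocyte-like cells (7 and 15) 21.3 and 80.0. Over both libraries the intervals of the fibroblast-like subclasses (477 to 529 and 273 to 316 UPM) lay apart from each other and from osteoblast-like cells (83.4 to 114), while osteoblast-like, chondrocyte-like and tenocyte-like cells overlapped with their neighbours in this order.

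Pdgfrb was ordered differently. Osteoblast-like cells had 170 and 152 UPM, Ccl11/Col15a1 fibroblast-like cells 152 and 139, and tenocyte-like cells 153 and 127, with overlapping intervals over both libraries. The interval of osteoblast-like cells (139 to 179 UPM) also overlapped with that of the pericyte/smooth muscle-like class (138 to 193), the leading class of Pdgfrb. Pi16/Dpp4 fibroblast-like cells stood lower at 56.3 and 80.2 UPM, and their interval (58.7 to 80.1) did not overlap with that of tenocyte-like cells (102 to 172). The Pi16/Dpp4 cells thus combined a high level of Pdgfra with a Pdgfrb level below that of Ccl11/Col15a1 fibroblast-like, osteoblast-like and tenocyte-like cells, and osteoblast-like cells had the opposite combination.

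The ligands were also unevenly spread. Over both libraries Pdgfa was highest in tenocyte-like cells (102 and 242 UPM), which in ND, on 12 UMIs, stood below the unnamed clusters led by H19 (123) and Prg4 (117). The value of the Prg4 cluster rested on 16 UMIs in 7 ND cells, 5 of them among the top 5% of doublet scores. Over both libraries Pdgfa was lowest in Pi16/Dpp4 (21.7 and 17.5) and Ccl11/Col15a1 fibroblast-like cells (29.8 and 33.3), with osteoblast-like cells at 62.7 and 81.6 between these and tenocyte-like cells. Pdgfd was concentrated in osteoblast-like cells, at 118 UPM in ND and 78.9 in HFD, above its level in endothelial-like cells, and stood at 1.87 and 5.46 UPM in Ccl11/Col15a1 fibroblast-like cells. Its interval over both libraries in osteoblast-like cells (77.8 to 108 UPM) was apart from that of every other subclass. Pdgfc stood at 28.6 and 32.5 UPM in Pi16/Dpp4 cells, 14.8 and 37.2 in osteoblast-like cells and 4.66 and 7.10 in Ccl11/Col15a1 cells. Pdgfb had no UMI in Pi16/Dpp4 or osteoblast-like cells.

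Of the unnamed mesenchymal clusters, the largest (88 and 123 cells, led by H19, Mfap4 and Nppc) had Pdgfa at 123 and 100 UPM, Pdgfrb at 145 and 137, Pdgfra at 111 and 149 and Pdgfd at 56.8 and 34.1. Another, led by the neutrophil genes Retnlg, Cstdc4 and Stfa2l1 (34 and 30 cells), had Pdgfra at 244 and 225 UPM and 9 of the 12 mesenchymal Pdgfb UMIs. Of its cells 20 in ND and 17 in HFD were among the 5% with the highest doublet score of their library, and the part of this in the Pdgfb count was not tested.

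**Figure D3:**
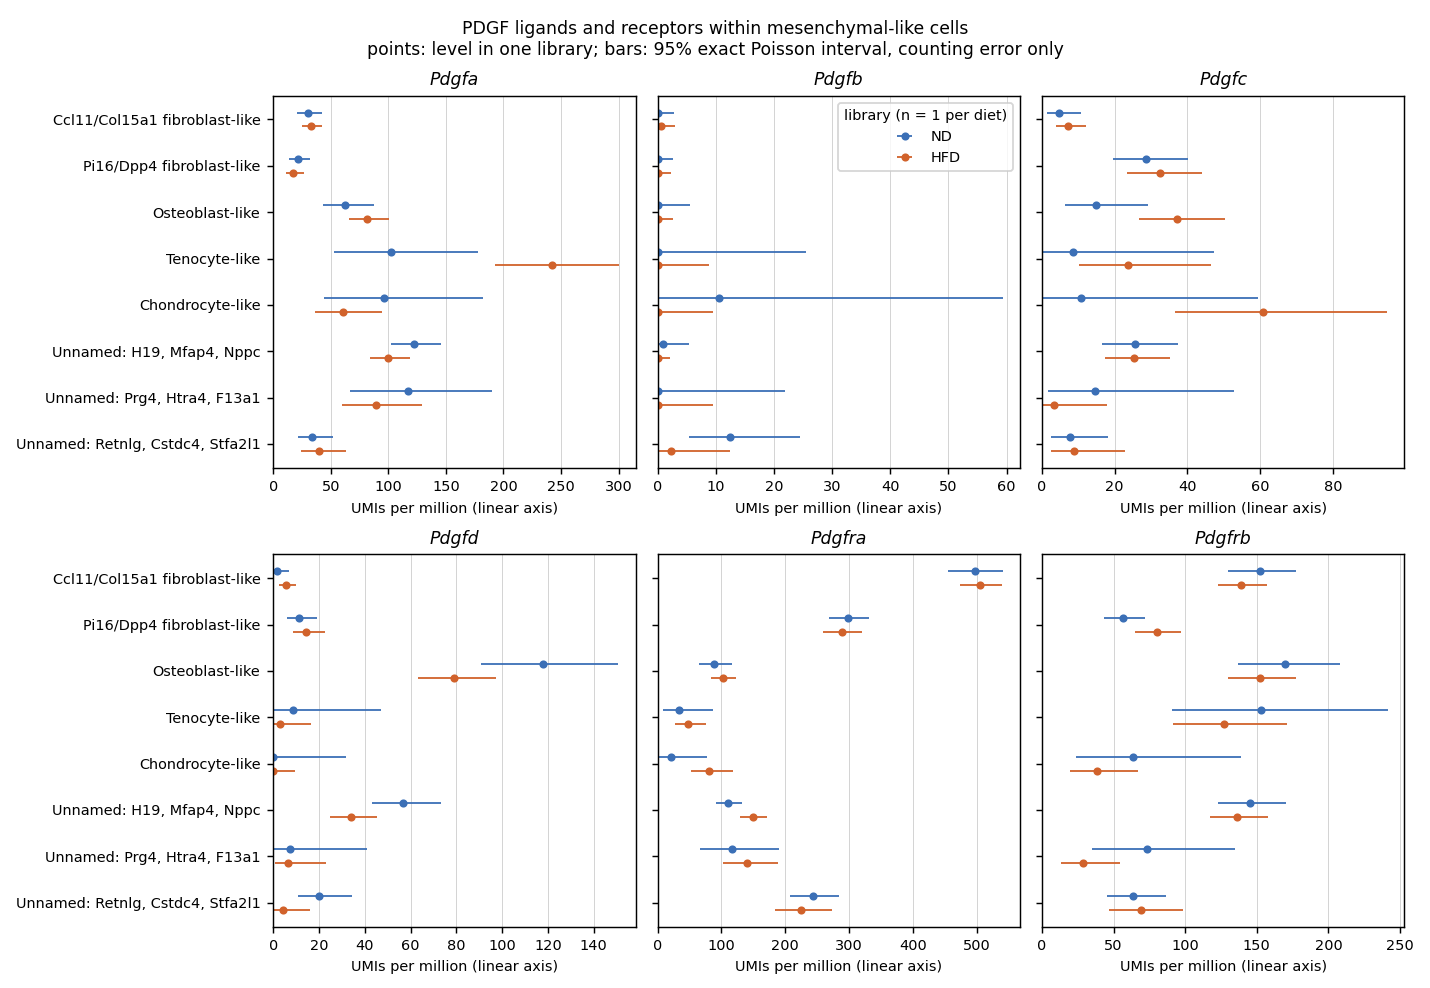
Level of each PDGF gene (UPM, linear axes that differ between panels) in the subclasses of mesenchymal-like cells, with the ND library in blue, the HFD library in orange and bars for the exact Poisson 95% interval. Pdgfra is highest in the fibroblast-like subclasses (497 and 506 in Ccl11/Col15a1 cells), Pdgfd in osteoblast-like cells (118 and 78.9) and, in the HFD library, Pdgfa in tenocyte-like cells (242), while in ND the unnamed clusters led by H19 and Prg4 stand above these cells (123 and 117 against 102).

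Receptors and ligands were then counted in the same cell. Of 1077 mesenchymal-like cells, 467 had UMIs of both Pdgfra and Pdgfrb, 285 of Pdgfra alone, 189 of Pdgfrb alone and 136 of neither. Cells with a Pdgfra UMI had a Pdgfrb UMI in 62.1% of cases and cells without in 58.2%, at median depths of 10679.5 and 7838 UMIs. In Ccl11/Col15a1 fibroblast-like cells the same shares were 63.6% and 38.9%, where the depths differed more (9627 and 2407.5). Pericyte/smooth muscle-like cells differed from this picture, with 56 of 90 cells carrying Pdgfrb alone, 1 both receptors and 0 Pdgfra alone.

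A ligand and a receptor were seen together in 42.7% of mesenchymal-like cells, 56.7% of pericyte/smooth muscle-like cells, 0.857% of endothelial-like cells and 1.65% of macrophage-like cells. In the pericyte/smooth muscle-like class, 50 of 90 cells had UMIs of both Pdgfa and Pdgfrb. Endothelial-like and macrophage-like cells were carriers of ligand: 70.6% and 65.9% had a ligand UMI, and 1.14% and 3.30% a receptor UMI. In the endothelial-like class Pdgfd UMIs were found in 21.8% of cells with Pdgfb and 11.2% of cells without (median depths 4449.5 and 3288.5 UMIs). Among macrophage-like cells, Pdgfb was seen in 46.0% of cells with Pdgfa and in 31.1% of cells without (13081 and 9855 UMIs). Depth moved with these pairings, and its part in them was not tested.

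The genes whose levels followed each member most closely were taken from 11881 genes with at least 200 UMIs, by Pearson's r of log2(UPM + 1) over 34 profiles, which are 17 classes and subclasses in 2 libraries. The profiles share libraries, and mesenchymal cells count in several of them, so that r is a description. Pdgfra was most like F3 (r = 0.96), which encodes tissue factor, the collagen-binding integrin gene Itga11 (0.95) and the mesenchymal transcription factor gene Osr1 (0.95). Pdgfrb was most like Lhfp (0.96), Fxyd1 (0.95), a regulator of the sodium pump, and Map1a (0.95), a microtubule-associated protein gene. Pdgfa followed Enho (0.95), Btbd3 (0.92) and Rilpl1 (0.92). Pdgfb had the least close neighbours, the junctional adhesion molecule gene F11r (0.82), the potassium chloride transporter gene Slc12a7 (0.80) and Prag1 (0.79). Pdgfc followed the adenylate kinase gene Ak1 (0.94), the proteoglycan gene Cspg4 (0.93) and Epb41l1 (0.92), and Pdgfd the actin regulator gene Enah (0.91) and the phosphatase gene Ptprk (0.86).

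The diets were compared by the log2 ratio of HFD over ND, for genes with at least 20 UMIs over both libraries, and a ratio past 1.5-fold was called. Over all kept cells each member was higher in HFD. Pdgfa rose from 11.8 to 17.8 UPM (log2 ratio 0.60, interval 0.44 to 0.75) and was the only one of the 6 past 1.5-fold, where 15.5% of 15994 genes were past it in either direction. Pdgfrb went from 13.7 to 19.5 UPM (0.51), Pdgfra from 26.2 to 37.1 (0.50), Pdgfc from 3.16 to 4.29 (0.44), Pdgfb from 7.69 to 9.73 (0.34) and Pdgfd from 4.01 to 4.90 (0.29). Of the classes that lead for a member, 3 were larger shares of the HFD library: the mesenchymal-like class made up 6.78% of the ND and 10.7% of the HFD library, the endothelial-like class 1.94% and 3.74%, and the pericyte/smooth muscle-like class 0.514% and 0.948%. Macrophage-like cells, the leading class of Pdgfc, were 1.51% and 1.46%. Each class was then given the same weight in both libraries, its mean share of UMIs over them. The log2 ratios were then 0.14 for Pdgfa, 0.16 for Pdgfc, 0.04 for Pdgfrb, 0.02 for Pdgfra, -0.13 for Pdgfb and -0.28 for Pdgfd, none past 1.5-fold. With 1 library per diet, diet and differences in how the cells were recovered cannot be told apart in these shares.

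At the main settings no member was past 1.5-fold in its leading class, while Pdgfc and Pdgfrb were past it under some alternatives. Pdgfa in pericyte/smooth muscle-like cells had a log2 ratio of 0.15 (-0.18 to 0.49) and Pdgfrb 0.39 (-0.13 to 0.95), where 23.7% of genes were past 1.5-fold. In endothelial-like cells Pdgfb had -0.18 (-0.45 to 0.11) and Pdgfd -0.03 (-0.69 to 0.68), where 19.8% of genes were past it. Pdgfc in macrophage-like cells had -0.42 (-1.10 to 0.22), on 55 and 33 UMIs, where the share was 17.7%. Of the markers of this class, Vcam1 differed between libraries, with 3 and 86 UMIs (2.42 and 85.7 UPM). C1qb (4866 and 5303 UPM) and Adgre1 (220 and 261) were closer, and the part of the Vcam1 difference in the Pdgfc ratio was not tested. Pdgfra in mesenchymal-like cells had 0.02 (-0.09 to 0.12), the narrowest of these intervals, which holds no change of more than 1.5-fold.

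In mesenchymal-like cells 0 of the 5 members with enough UMIs were past 1.5-fold, where 14.0% of 12615 genes were. The latent ligands lay on opposite sides of 0, with intervals that did not include it: Pdgfc at 0.45 (0.06 to 0.85), on 81 and 161 UMIs, and Pdgfd at -0.41 (-0.74 to -0.09), on 152 and 166 UMIs. These intervals treat molecules as independent, and a few cells held many of them, up to 8 Pdgfc UMIs in 1 HFD cell and 9 Pdgfd UMIs in 1 ND cell. Without that cell the ratios were 0.38 and -0.34. With each mesenchymal subclass given the same weight in both libraries, its mean share of mesenchymal UMIs, they were 0.47 and -0.53. Pdgfa had 0.18 (-0.03 to 0.41) and Pdgfrb 0.02 (-0.13 to 0.18).

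Within subclasses, Pdgfc was past 1.5-fold with an interval clear of 0 in osteoblast-like cells, with 8 UMIs in 59 ND cells and 41 UMIs in 128 HFD cells (log2 ratio 1.26, 0.22 to 2.64). This ratio was smaller with the top 5% of doublet scores removed, as given below, and no interval was made for it there. Pdgfc was 0.18 (-0.51 to 0.89) in Pi16/Dpp4 fibroblast-like cells and -0.02 (-0.79 to 0.78) in the cluster led by H19, Mfap4 and Nppc, and the intervals of these 3 groups overlap. Osteoblast-like cells had Pdgfd at -0.58 (-1.06 to -0.09), just under 1.5-fold, so that Pdgfc was past it in the one direction and Pdgfd close to it in the other. Of the 64 ND UMIs of Pdgfd there, 9 lay in 1 cell, and the ratio without that cell is not given here. Of the 5 members measured there, 1 was past 1.5-fold, where 22.9% of genes were. The cluster led by H19, Mfap4 and Nppc also had less Pdgfd in HFD, 58 and 46 UMIs (-0.73, -1.33 to -0.15), 1 of 5 members past 1.5-fold against 18.0% of genes, and Pdgfra there was 0.43 (0.09 to 0.77). Pi16/Dpp4 fibroblast-like cells had Pdgfrb at 0.51 (0.05 to 0.98), with 0 of 5 members past 1.5-fold and 17.2% of genes, and in Ccl11/Col15a1 fibroblast-like cells 0 of 3 were, against 18.3%.

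Tenocyte-like cells had 12 Pdgfa UMIs in 8 ND cells and 82 in 38 HFD cells (1.20, 0.37 to 2.26), and a single HFD cell held 19 of them. The Pdgfa ratio of tenocyte-like cells was also smaller with the top doublet scores removed. Markers of these cells also differed between libraries: Tnmd had 722 and 2080 UPM, Chodl 127 and 555 and Kera 0 and 354. Scx (561 and 531) and Mkx (102 and 103) were close, and the part of the marker differences in the ratio was not tested. Of 3 members tested there 1 was past 1.5-fold, where 38.5% of genes were. In chondrocyte-like cells (7 and 15 cells) 3 of 3 were past it, against 41.6% of genes, and every interval included 0: Pdgfc had 1 and 19 UMIs (1.97) and Pdgfra 2 and 25 (1.62), while Pdgfa had 9 and 19 (-0.70). Markers of this subclass differed as well, with Snorc at 1683 and 176 UPM, Chad at 10385 and 3341 and Acan at 618 and 1386. Other markers on its list were nearly or wholly absent, with no UMI of Matn3 and 1 and 7 UMIs of Col9a1. The osteoblast marker Ibsp led the top genes of this cluster, ahead of the cartilage collagen gene Col2a1 (3206 and 5517 UPM). Among blood cells, the Pdgfb ratio of 1.99 (0.55 to 3.90) in blood progenitor-like cells rested on 5 and 15 UMIs, 10 of the latter in 1 cell, and was 0.51 without it. In that class 2 of 3 members were past 1.5-fold, where 10.7% of genes were. The other was Pdgfrb, lower in HFD on 32 and 12 UMIs (-0.88), with an interval that included 0 (-2.01 to 0.08). Pdgfb was at -0.76 in monocyte-like and 0.91 in T cell-like cells, and Pdgfa at 0.91 in monocyte-like and 0.68 in neutrophil-like cells, all past 1.5-fold with intervals that included 0. Without the cell with most UMIs of the gene, both monocyte-like values were lost (Pdgfb -0.11 and Pdgfa -0.23), and so were Pdgfa (0.21) and Pdgfrb (0.74 to 0.43) in neutrophil-like cells, while Pdgfb in T cell-like cells was 0.74. The neutrophil-like values rested on 8 and 14 UMIs of Pdgfa (0.501 and 0.820 UPM) and 11 and 20 of Pdgfrb (0.688 and 1.17 UPM). Beside them, B cell-like cells had 0.654 and 0.919 UPM of Pdgfa and 0.131 and 0.919 of Pdgfrb. As Dcn was higher in neutrophil-like than in B cell-like cells, this level may understate free RNA in neutrophil-like cells, which was not tested. Calls in other blood cells also rested on few UMIs. Monocyte-like cells had 14 and 25 of Pdgfa and 24 and 13 of Pdgfb, and T cell-like cells 17 and 25 of Pdgfb. The shares of all genes in these classes were not matched for counts. The members past 1.5-fold were 2 of 2 in monocyte-like cells, 1 of 1 in T cell-like and 2 of 3 in neutrophil-like cells, where 11.3%, 16.1% and 13% of genes were. They were 0 of 1 in NK cell-like and in dendritic cell-like cells, against 18.6% and 21.3%. In the other unnamed mesenchymal clusters they were 0 of 2 in that led by Prg4 (38.3% of genes) and 0 of 3 in that led by Retnlg (23.7%).

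**Figure D4:**
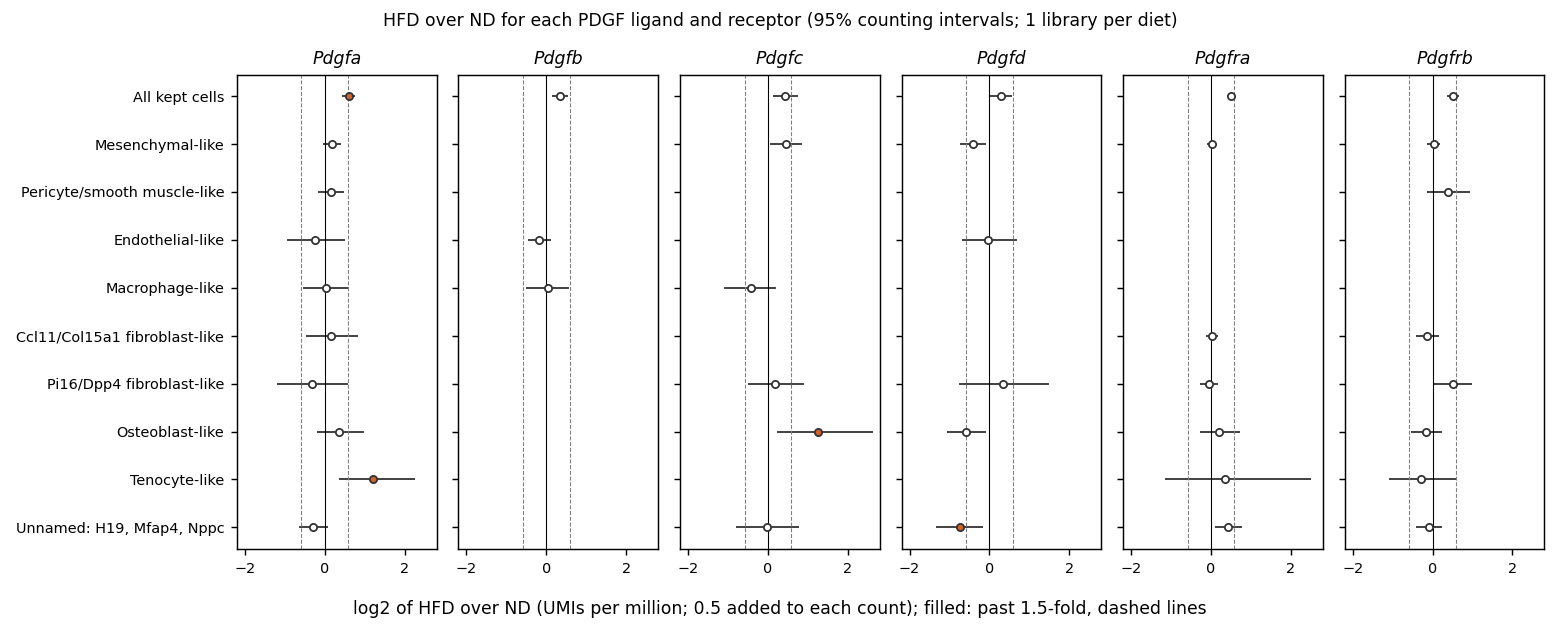
Log2 ratio of HFD over ND for each PDGF gene in all kept cells, 4 classes and 5 mesenchymal subclasses, with 95% counting intervals, for genes with at least 20 UMIs there; dashed lines stand at 1.5-fold and filled points are past it. The filled points are Pdgfa over all kept cells (0.60) and in tenocyte-like cells (1.20), Pdgfc in osteoblast-like cells (1.26) and Pdgfd in the cluster led by H19, Mfap4 and Nppc (-0.73).

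Genes that act with the PDGF family were read in mesenchymal-like cells, the class with both receptors, from a list of 65 genes by role. Of 64 with enough UMIs, 1 was past 1.5-fold upward and 1 downward, where 14.0% of all 12615 genes were past it in either direction. That share was not matched for counts, and 63 of the 64 listed genes had at least 100 UMIs. The median log2 ratio of the 64 was 0.01 beside 0.05 over all genes. The gene past it upward was Spry1, a feedback inhibitor of receptor tyrosine kinase signaling, which had 32.0 UPM in ND (153 UMIs) and 62.0 in HFD (431 UMIs), a log2 ratio of 0.95 (0.68 to 1.23). Spry1 was past 1.5-fold in Ccl11/Col15a1 fibroblast-like cells (0.85, 0.50 to 1.23), in tenocyte-like cells (1.60, 0.57 to 3.06), and in osteoblast-like (1.00) and Pi16/Dpp4 fibroblast-like cells (0.77) with intervals that included 0. Not every mesenchymal subclass shared this. In the cluster led by H19, Mfap4 and Nppc, 0 of the 9 listed negative regulators, Spry1 among them, were past 1.5-fold upward. In pericyte/smooth muscle-like cells Spry1 was past 1.5-fold in the other direction, on 12 and 8 UMIs (-1.39, -2.92 to -0.01), and in endothelial-like cells it had -0.16. Its relatives Spry2 (0.02, -0.16 to 0.19) and Spry4 (-0.19) did not share the difference. Slc9a3r1, an adaptor that binds the receptor tail, went from 22.2 to 13.2 UPM (-0.74, -1.16 to -0.33).

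No gene of the other roles was past 1.5-fold apart from Slc9a3r1. Among 6 proteases that process the ligands, 0 were past 1.5-fold, and the most abundant, Pcsk6, had 176 and 160 UPM (-0.14). Of these proteases 3 lay above 0 and 3 below. Plat, which encodes tissue plasminogen activator and activates PDGF-C, had 70.3 and 80.0 UPM (0.19). Sparc, whose product binds PDGF, had 0.38 (0.36 to 0.40) and Nrp1, a co-receptor, 0.35 (0.15 to 0.56), both under 1.5-fold. Of the 10 enzymes recruited to the receptors, 0 were past 1.5-fold. In this role 8 genes lay above 0 and 2 below (median 0.16), with the regulatory kinase subunit Pik3r1 at -0.15. The most abundant adaptor, Grb2, stood at -0.08 and Jak1, the most abundant gene of the kinase cascade, at -0.17, with 0 of 16 in the cascade past 1.5-fold. Of the 11 adaptors 6 lay above 0 and 5 below (median 0.06). Of the 16 genes of the cascade 10 lay above 0 and 6 below (median 0.02).

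The early-response genes that PDGF induces, together with many other stimuli, were all on one side in the mesenchymal-like class as a whole. All 8 had ratios under 0 in mesenchymal-like cells, from -0.24 for Egr1 to -0.47 for Fosb, with Fos at 6665 UPM in ND and 5339 in HFD (-0.32, -0.34 to -0.30), and 0 were past 1.5-fold. In osteoblast-like cells 5 of 8 were past 1.5-fold downward, where 22.9% of all genes were past it in either direction. Not every mesenchymal subclass shared the direction: 4 of 7 lay above 0 in tenocyte-like cells and 5 of 7 in the cluster led by Retnlg. The same genes were under 0 in 8 of 8 cases in monocyte-like and in endothelial-like cells (medians -0.76 and -0.66). There 4 of 8 and 5 of 8 were past 1.5-fold downward, where 11.3% and 19.8% of all genes were past it in either direction. In macrophage-like cells these genes had a median of 0.18, with 0 of 7 past 1.5-fold. Enzymatic release of cells from bone also induces these genes, and its part in the difference was not tested.

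**Figure D5:**
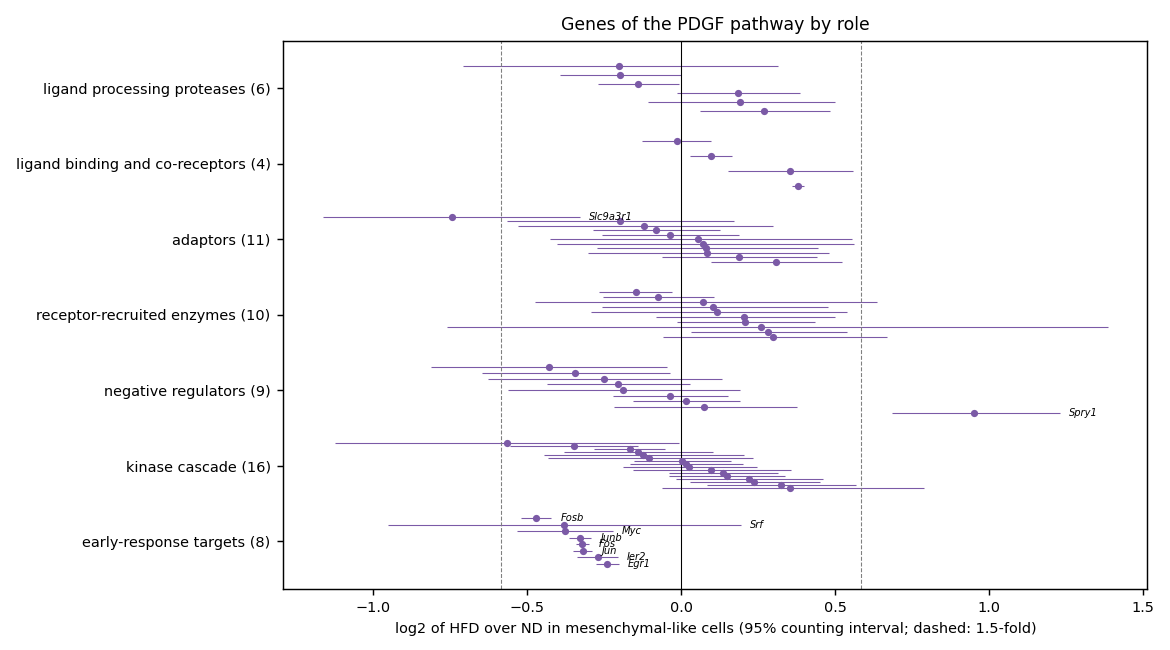
Log2 ratio of HFD over ND in mesenchymal-like cells for 64 genes of the PDGF pathway in rows by role (number of genes in brackets), with 95% counting intervals and dashed lines at 1.5-fold. Spry1 (0.95) and Slc9a3r1 (-0.74) are past the lines, and the 8 early-response genes all lie between -0.47 and -0.24.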

How the data were processed

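Periosteal cells were measured by 10X Chromium 3′ single-cell sequencing, 1 pooled library per diet. The authors deposited raw UMI counts per gene and barcode, made, per the submitters' processing notes, with Cell Ranger 6.0.1 and the mm10 build. The ND and HFD matrices held 6314 and 6636 barcodes with 48558889 and 49940976 UMIs. The study's own filter was used: over 500 but under 8000 genes per barcode, with mitochondrial UMIs below 20%. Cells were clustered in Seurat 5.3.0 (R 4.3.3) with SCTransform, S and G2M regression, 30 principal components and resolution 0.5, without the 6 PDGF genes, and clusters were named from marker lists. Names such as mesenchymal-like were rebuilt here and are not the study's. No name was given where under 3 markers were detected, where another class led the top 10 genes, where depth was low, or where most cells had top doublet scores. Scrublet (scanpy 1.11.5) called under 0.5% of cells, and doublets were kept, with the 5% of highest scores removed as an alternative.

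Counts were summed per class and library. Ratios had 0.5 added to each count. Levels have exact Poisson intervals, shares Clopper-Pearson intervals and ratios conditional binomial intervals, all covering counting error only, and a count of 0 was taken to allow 3. A gene needed 20 UMIs over both libraries for a ratio. TMM factors, an alternative scaling, came from edgeR 4.0.16 and had no test. Ratios and intervals were tested on simulated counts, drawn as independent Poisson counts of class sums, which is the model that the intervals assume. Such counts cannot show the error from molecules that lie together in 1 cell. The members and gene lists were chosen with earlier results of these data known. Named genes were the 6 members, up to 10 pathway genes past 1.5-fold in each direction and the most abundant of each role, the 3 most alike genes per member, and class markers. For Pdgfd, 1 alike gene and 1 unnamed cluster are not reported here. Egr1, Fosb, Plat, Nrp1, Spry4, Dcn and the splits by Rgs5 were added after their values were seen.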

Additional observations from a re-analysis of the deposited data

Results flagged for a closer look

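Among the 285 ND and 412 HFD barcodes left out by the filters, Pdgfa had 1 UMI in ND and 9 in HFD, 2.21 and 17.0 UPM. It drew attention because the interval of the ratio lies above 0 in barcodes that the main comparisons did not use. Pdgfra had 7 and 13 UMIs and Pdgfrb 4 and 11 in the same barcodes. The composition of these barcodes by class was not analysed here.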

How the results depend on the processing

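No paired analysis was possible because the cells of a diet are pooled in 1 matrix and cannot be traced to a labelled sample, and for the same reason no replicate could be left out. Ratios in leading classes were recomputed under each alternative, and some could not move. Removal of called doublets took no cell from these classes, and resolution 0.25 left all of them but the macrophage-like class unchanged. Of 61 recomputed ratios in leading classes, 58 stayed within the counting interval of the main value. The exceptions came from thinning each cell to 1000 UMIs, which gave -0.49 for Pdgfa (19 and 26 UMIs), 0.72 for Pdgfc (4 and 7) and -0.93 for Pdgfrb (6 and 6). Some values within the interval were past 1.5-fold. Pdgfc in macrophage-like cells was -0.86 at resolution 0.25 and -0.87 with a minimum of 200 genes. Pdgfrb in pericyte/smooth muscle-like cells was 0.61 with mitochondrial UMIs below 10%. Of 42 recomputed shares of UMIs in the leading class, 34 stayed within their interval. Thinned, the shares were 27.9% for Pdgfa, 65.7% for Pdgfb, 37.9% for Pdgfc, 30.6% for Pdgfd, 96.3% for Pdgfra and 6.67% for Pdgfrb, and Pdgfra was 92.5% with a minimum of 200 genes and 98.8% with the top 5% of doublet scores removed. With equal class weights the ratios over all cells moved to 0.14 (Pdgfa), -0.13 (Pdgfb), -0.28 (Pdgfd), 0.017 (Pdgfra) and 0.039 (Pdgfrb), where the construction removes the difference in class shares. The count of pathway genes past 1.5-fold was 2 or 3 in 10 alternatives and 8 of 54 after thinning. For the other cases the cause was not tested. Among ratios outside the leading classes, Pdgfa in monocyte-like cells went from 0.91 to -0.23 without 1 cell, and Pdgfrb in neutrophil-like cells from 0.74 to -0.30 without the top doublet scores. With those scores removed, Pdgfc in osteoblast-like cells was 0.70 and Pdgfa in tenocyte-like cells 0.69.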

Other observations

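Pdgfrl, a gene whose product resembles the extracellular part of a PDGF receptor and which is not one of the 6 members, was looked at after the values of the family were seen. Mesenchymal-like cells held 97.2% of its 2046 UMIs, at 113 UPM in ND (541 UMIs) and 208 in HFD (1448 UMIs), a log2 ratio of 0.88 (0.74 to 1.03) with 1 library per diet. Endothelial-like and pericyte/smooth muscle-like cells had none.

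An unnamed cluster led by H2-Eb1, Retnla and H2-Aa had Pdgfb at 24.5 and 35.1 UPM. Among blood progenitor-like cells, the 23 ND cells with a Pdgfrb UMI had mesenchymal marker genes at 278 UPM in sum, against 42.4 in the 223 without, and the 10 HFD cells 18.7 against 54.0 in the 190 without. The 9 Pdgfra UMIs of the 23 ND cells all lay in 1 cell, and the part of that cell in the marker sum was not tested.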
